A study of Homo sapiens with 16 samples.

Results

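The proteins of the cytosolic ribosome are encoded by a family of genes named RPL (large, 60S subunit) and RPS (small, 40S subunit). Members were taken from the symbols of the deposited count table: RPL or RPS followed by a number and, where present, the letter A or X, plus RPLP0, RPLP1, RPLP2 and RPSA. For a symbol that stood on several identifiers the identifier with the most counts was kept. This gave 77 genes, 46 of the 60S and 31 of the 40S subunit, of 37864 genes in the table. They were followed in the line MDA-MB-231, which comes from a human breast cancer of the triple-negative kind and has mesenchymal features, after treatment with afatinib, with paclitaxel, with both drugs together (the combination) or with DMSO, the solvent, as the control. Afatinib is an irreversible inhibitor of EGFR-family kinases, and paclitaxel stabilises microtubules and blocks mitosis. Each group held 4 libraries of total RNA from cells in the same serum-containing medium, 16 in all. Dose and time of exposure are not given in the sources used here, nor whether each replicate was its own culture. The p-values therefore rest on the spread between libraries of a group that is left within the sets of replicates described below. That spread may be technical.

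A ribosome needs its proteins in near-equal numbers, and their mRNAs are among the most abundant of a growing cell. In mammals most of these mRNAs begin with a cytosine followed by an unbroken run of pyrimidines, the 5′ terminal oligopyrimidine (TOP) motif. The motif makes their translation, and through the protein LARP1 their stability, respond to the growth-factor and nutrient pathway of the kinase mTOR. In bulk RNA, as here, fewer cells and less RNA per cell cannot be told apart, and the values say nothing of translation or of protein.

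The motif is shown for members whose values are described below, and RPL3 and RPS28 are shown as members without it at the annotated start. Each line holds 10 bases before the annotated start and 15 from it, with the unbroken pyrimidine run from the start in capitals.
RPS14: ccctcccactCTCTCTTTCCggtgt
RPLP0: ggcgcgaggcCCTTCTCTCgccagg
RPS6: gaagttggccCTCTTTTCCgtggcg
RPS19: ccccgtcgttCCCTTTCCCCTggct
RPL14: ggtcttcttcCTTCTCgcctaacgc
RPL41: cttcgcctttCTCTCggccttagcg
RPL3: gccgaccggcCTCTaccggcgggat
RPS28: gaagcacgtgactcctctccgccag
The sequences are from RefSeq on GRCh38.p14. In the order of the lines they lie at chr5:150449725-150449749 on the minus strand, chr12:120201097-120201121 on the minus strand, chr9:19380222-19380246 on the minus strand, chr19:41860245-41860269 on the plus strand, chr3:40457329-40457353 on the plus strand, chr12:56116623-56116647 on the plus strand, chr22:39319609-39319633 on the minus strand and chr19:8321486-8321510 on the plus strand.  A start was counted as carrying the motif when its first base was C and the run of C and T from that base, on the gene's strand only, was at least 5 bases long. RPL3 stops short of that with a run of 4, and the annotated start of RPS28 is an A. In RPS28 a run of C and T follows directly after that A, so a start at the next base would carry the motif. RPS19 has a second annotated start, without the motif. Of 62 members with an entry, 46 (74.2%) carried the motif at an annotated start, against 1404 of 27305 symbols over all RefSeq entries (5.14%). A run of these letters is a description of the annotated start, not proof of the start used in these cells.

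Library totals lay between 28366004 and 48108577 counts, and 17991 genes had enough counts to be tested. The defining markers of the line were high in every library (VIM 844 to 1213 CPM, AXL 1275 to 2091 CPM, CD44 850.0 to 2142 CPM). CPM are counts per 1000000 counts of the scaled library. Of the luminal and epithelial markers, CDH1, ESR1 and FOXA1 stayed at or below 0.407, 0.491 and 1.47 CPM. The others of that list were expressed: ERBB2 at 51.4 to 102 CPM, GATA3 at 8.22 to 14.3, EPCAM at 6.60 to 13.7 and PGR at 3.80 to 6.44 CPM. Summed over the 5 blood markers in the table, levels were at most 0.586 CPM with afatinib, 0.741 CPM with paclitaxel, 0.946 CPM with the combination and 0.432 CPM in DMSO, most of it ITGAM, with CD3E at 0 in 15 libraries and HBA1 at 0 in 13. Their part in the members' changes was not tested. The replicates of every group fell into 2 sets by the labelled RNA concentration: 118 to 330 ng/µl in replicates 3 and 4, and 345.6 to 1290.9 ng/µl in replicates 1 and 2. The set was a term in the fit reported here, and changes between treatments are therefore changes within a set unless another fit is named. Within the sets the concentrations of the treated cells differed from those of DMSO as well. In replicates 1 and 2 they were 1134.9 and 868.6 ng/µl with afatinib, 345.6 and 429.7 ng/µl with paclitaxel and 685.1 and 561.5 ng/µl with the combination, against 1050.5 and 1290.9 ng/µl in DMSO. In replicates 3 and 4 they were 180.6 and 188 ng/µl with afatinib, 300.5 and 204.2 ng/µl with paclitaxel and 167.6 and 118 ng/µl with the combination, against 292.1 and 330.0 ng/µl in DMSO. The combination thus lay below DMSO without overlap in both sets, afatinib in replicates 3 and 4 and paclitaxel in replicates 1 and 2, and there the drug and the concentration cannot be told apart within the set.

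The members differed more between the sets than between any drug and DMSO. Of all counts, the members took 3.15% and 3.37% in replicates 3 and 4 with afatinib, 3.75% and 3.53% with paclitaxel, 3.28% and 2.97% with the combination and 3.68% and 3.29% in DMSO. In replicates 1 and 2 they took 5.31% and 4.83% with afatinib, 5.68% and 5.04% with paclitaxel, 5.25% and 5.05% with the combination and 5.42% and 5.32% in DMSO. No library of replicates 3 and 4 reached any of replicates 1 and 2. All 76 tested members were called different between the sets at an adjusted p under 0.05 (edgeR, Benjamini-Hochberg over all genes), 73 lower and 3 higher in replicates 3 and 4, with a median log2 fold change of −0.52; over all genes 33.3% were called lower and 36.2% higher, with a median of 0.01. The falls were uneven. RPL12, a protein at the base of the ribosomal stalk, fell by 1.00 on the log2 scale (SE 0.05), RPS12 by 0.94, RPS20 by 0.85 and RPLP0 by 0.74, while RPL3 fell by 0.29. The 3 members that were higher, RPS18, RPL36A and RPS9, are members with few counts. Counts of the 60S members were 1.72 to 1.78 times those of the 40S members in replicates 3 and 4 and 1.69 to 1.74 times in replicates 1 and 2. Genes encoded in mitochondria took 4.09 to 9.71% of the counts in replicates 3 and 4, against 2.26 to 3.48% in replicates 1 and 2. Transcript length moved with the set as well: among other protein-coding genes the median change was −0.43 for transcripts under 500 bases, −0.35 from 500 to 1000 bases and 0.18 over 4000 bases, and of the members 10 had transcripts under 500 bases and 45 from 500 to 1000 bases. The concentrations of the sets came close in libraries of DMSO and paclitaxel. The members' share was 3.68% and 3.29% in DMSO replicates 3 and 4 (292.1 and 330.0 ng/µl) and 3.75% in paclitaxel replicate 3 (300.5 ng/µl). It was 5.68% and 5.04% in paclitaxel replicates 1 and 2 (345.6 and 429.7 ng/µl). These are single libraries, and for DMSO the treatment differed too. The part of concentration, mitochondrial counts or length in the members' difference was not tested.

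Within DMSO cells most members' levels lay in a band with a long lower tail, part of which follows from long annotated transcripts. Per kilobase of the principal transcript, the highest were RPS2 at 1914 ± 530.4 CPM per kilobase (SD, n = 4), RPL13 at 1687 ± 402, RPL8 at 1513 ± 352, RPS27 at 1426 ± 349, RPS3 at 1399 ± 218, RPLP0 at 1397 ± 403, RPS16 at 1373 ± 315 and RPS19 at 1359.8 ± 330.0. RPS2 and RPS3 line the entry channel of the mRNA, and RPL8 lies near the peptidyl transferase centre. None of these 8 neighbours in the order differed beyond its SD. That SD holds the difference between the sets, however, and the order within single libraries was not tested. The well-known members below them were RPSA, an outer protein of the small subunit, at 1169 ± 308, RPL5 at 1026 ± 163, RPLP2 at 885 ± 208, RPLP1 at 576 ± 164, RPL11 at 511 ± 107 and RPS6, the substrate of the S6 kinases, at 371 ± 73.5. Their order depends on the annotated transcript. RPLP1 (1197 bases) had 894, 820, 538 and 504 CPM in DMSO, more than RPLP2 (637 bases) with 652, 701, 469 and 432 CPM. The transcripts of RPS6 (1387 bases) and RPL11 (1017 bases) are also longer than that of RPLP2. Among the lowest were RPS23 at 46.8 ± 9.06, RPL17 at 21.7 ± 4.61, RPL36A at 20.7 ± 8.47, RPS10 at 11.5 ± 2.47 and RPS9 at 3.09 ± 0.805 CPM per kilobase. RPS23, with 105371 counts in all, is placed low because its annotated principal transcript is long (3437 bases), and the same holds for RPL37 (7686 bases), RPL27A (4916 bases) and RPL37A (3647 bases). The others are low in counts. RPL17 (8769 counts over all libraries), RPL36A (5747) and RPS10 (4248) overlap the readthrough genes RPL17-C18orf32, RPL36A-HNRNPH2 and RPS10-NUDT3, to which their reads can be ambiguous, and for RPS10 the pseudogenes of its name held 49.0% of the summed counts. RPS9 stood on 5 identifiers, and the one kept held 1297 counts. RPS18 stood on 4, and the one kept (880 counts) lies off the primary assembly, so it has no length or position here, while 72.5% of the summed counts lay on its pseudogenes. RPL41 and RPL9 also stood on several identifiers, with 1108 and 5 counts on the others. How the authors' counting treated reads with several matches, and strand, is not given in the sources used here, so values of these low members are uncertain.

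**Figure D1:**
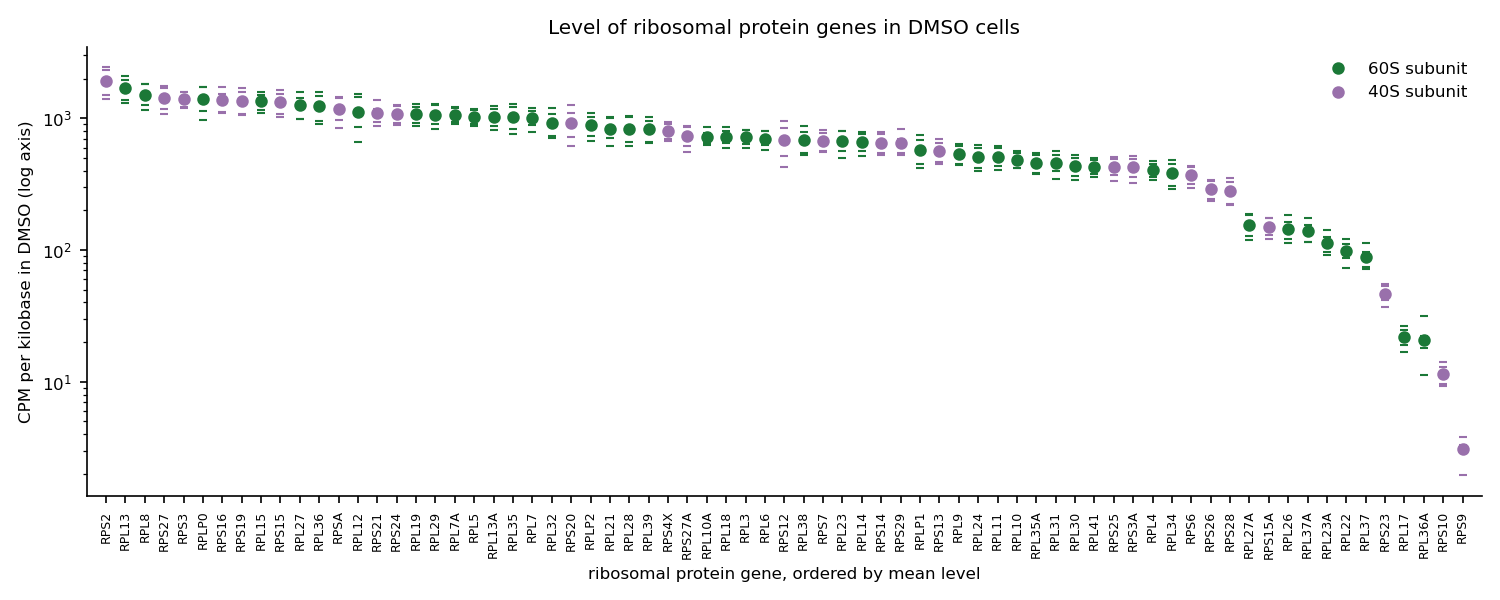
Mean level of 71 ribosomal protein genes in DMSO cells, in CPM per kilobase of the principal transcript on a log axis, with a dash for each of the 4 libraries. Most genes lie within a band from RPS2 at 1914 to RPS28 at 279.9, and RPS9 lies far below.

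Members across both subunits were lower with afatinib by a small amount in the fit with the set as a term. Of 76 tested members 36 were lower and 0 higher than in DMSO (adjusted p under 0.05), where 10.1% of all tested genes were called lower and 9.00% higher. Among the members 58 had an unadjusted p under 0.05, for which the share over all genes is not given here. The median log2 fold change was −0.17 over the members and 0.00 over all genes, with a median SE of 0.06 for a single member. The medians were −0.17 within replicates 1 and 2 and −0.16 within replicates 3 and 4, and 74 members lay below 0 in each set. In 52 members every afatinib library lay below every DMSO library in both sets, as for 14.9% of all genes. Library by library, the members' median relative to the DMSO libraries of the same set was −0.10, −0.27, −0.19 and −0.11 with afatinib, against 0.03, −0.03, 0.04 and −0.04 in DMSO. Afatinib replicate 2 stood lowest, and no afatinib library reached the DMSO range.

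**Figure D2:**
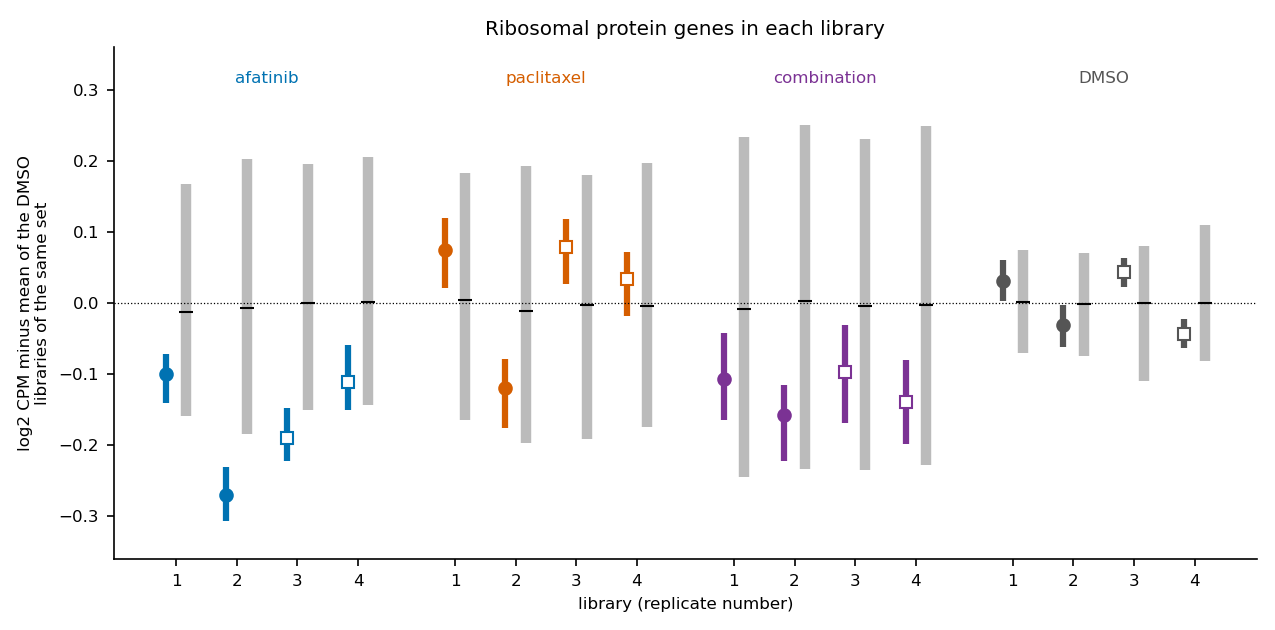
Log2 CPM of the 76 tested ribosomal protein genes in each library minus the mean of the DMSO libraries of the same set: coloured points are medians (filled circles, replicates 1 and 2; open squares, replicates 3 and 4) with coloured bars from the lower to the upper quartile, and grey bars with a black dash give the same for all 17991 tested genes. Every afatinib and combination median lies below the DMSO medians, paclitaxel replicate 2 lies at −0.12 and the other paclitaxel libraries lie between 0.03 and 0.08.

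The largest called falls with afatinib were in RPS10, RPL17, RPL3, RPS14, RPL10 and RPL14. RPS14 (ENSG00000164587, chr5:150442635-150449756, minus strand, GRCh38), whose loss underlies the red-cell defect of a myelodysplastic syndrome, had 393, 348, 248 and 256 CPM with afatinib, against 434, 449.6, 309 and 297 CPM in DMSO. The afatinib libraries lay below the DMSO libraries within each set. It fell by 16.6% (log2 fold change −0.26 ± 0.06, adjusted p = 0.0019), with −0.25 in replicates 1 and 2 and −0.27 in replicates 3 and 4. RPL3 (ENSG00000100316, chr22:39312882-39320389, minus strand), which reaches into the peptidyl transferase centre, had 1017, 901, 734 and 742 CPM with afatinib, against 1182, 1175, 913 and 854 CPM in DMSO. Here too the groups did not overlap within a set, and the fall was 17.6% (−0.28 ± 0.06, adjusted p = 0.003). RPL10 (ENSG00000147403, chrX:154389955-154409168, plus strand), a protein that joins the 60S subunit late, in the cytoplasm, had 624, 564, 461 and 465 CPM with afatinib, against 697, 724, 542 and 537 CPM in DMSO (−0.24 ± 0.05, adjusted p = 0.0029). Its locus overlaps DNASE1L1 on the other strand. RPL14 (ENSG00000188846, chr3:40457292-40468587, plus strand) had 630.3, 572, 406 and 429.6 CPM with afatinib, against 716, 698, 519 and 470.3 CPM in DMSO (−0.24 ± 0.06, adjusted p = 0.0043). For RPL10 and RPL14, as for RPS14 and RPL3, every afatinib library was below every DMSO library of its set.

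The remaining 2 named falls rest on few counts. RPL17, at the rim of the tunnel through which the new protein leaves, had 12.7, 13.7, 10.0 and 11.1 CPM with afatinib, against 16.6, 17.7, 12.7 and 11.2 CPM in DMSO (−0.28 ± 0.07, adjusted p = 0.0093). RPS10, a mark of stalled ribosomes when it carries ubiquitin, had 6.61, 5.60, 4.58 and 4.80 CPM with afatinib, against 8.37, 7.63, 5.47 and 5.61 CPM in DMSO (−0.32 ± 0.11, adjusted p = 0.036). Within each set both genes were lower in every afatinib library. RPS10 lost the call when single libraries were left out (adjusted p up to 0.151). The value furthest below 0 was that of RPS9, −0.39 ± 0.21, which was not called (adjusted p = 0.204). The 2 members above 0 were RPS18 at 0.23 ± 0.22 and RPL36A at 0.14 ± 0.27, neither of them called.

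Of the members that hold special roles, RPS6 was lower with afatinib, with 555, 513, 369 and 385 CPM against 608, 596, 443 and 411 CPM in DMSO (−0.18 ± 0.06, adjusted p = 0.03), and so was RPLP0, the base of the stalk that recruits translation factors (−0.22 ± 0.07, adjusted p = 0.019). Its partners on the stalk were not called: RPLP1 had −0.06 ± 0.07 and RPLP2 −0.15 ± 0.06. RPL5 and RPL11 form with the 5S ribosomal RNA a particle that also binds MDM2, the ubiquitin ligase of p53. RPL5 fell (−0.21 ± 0.06, adjusted p = 0.013) and RPL11 did not pass the test (−0.10 ± 0.06, adjusted p = 0.29). RPS19, the gene most often mutated in Diamond-Blackfan anaemia, an inherited failure of red-cell production, had −0.11 ± 0.06 (adjusted p = 0.221), and RPSA −0.13 ± 0.06 (adjusted p = 0.151).

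Much of this count depended on single libraries. For this and the other fits with a library left out or a setting changed, shares over all genes are not given here. Leaving out afatinib replicate 2 left 11 members called lower, afatinib replicate 3 left 10, DMSO replicate 1 left 13 and DMSO replicate 3 left 23; RPL17, RPL3, RPS14, RPL10, RPL14, RPL9, RPL35A and RPL41 (8 of 36) kept the call whichever library was left out. No member was called without the set term or with the RNA concentration in its place, 3 were called with library totals as the only scaling, 3 were called with replicates 1 and 2 alone and 0 with replicates 3 and 4 alone, while the median stayed at −0.05 or lower in each of these. In the authors' deposited log2 values 1 member was called and the median was −0.09.

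**Figure D3:**
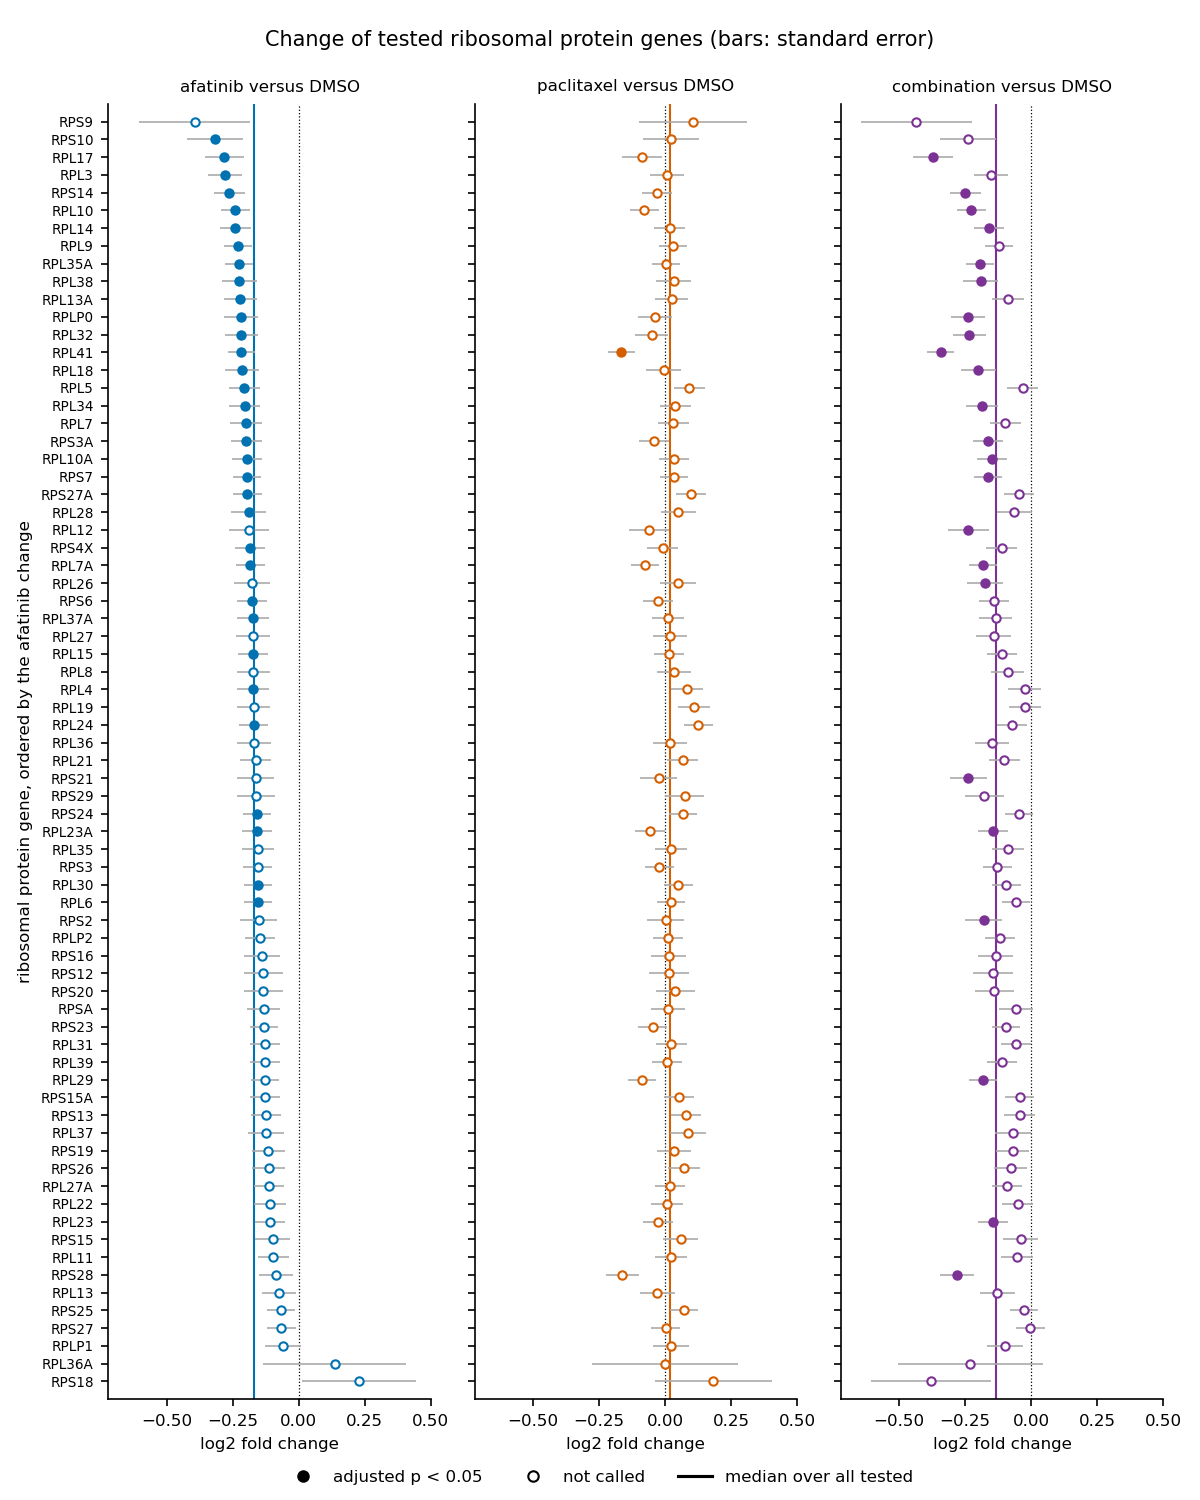
Log2 fold change of 72 tested ribosomal protein genes, each with its standard error in afatinib, paclitaxel and combination against DMSO, in 1 order fixed by the afatinib change; filled points were called and the coloured line marks the median over all 76 tested (−0.17, 0.02 and −0.13). With afatinib 70 of the points lie left of 0 and with the combination all 72, in the fit with the set as a term (with the RNA concentration in its place the medians were −0.05, 0.27 and 0.13), and in paclitaxel the points spread around 0.

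With paclitaxel the members lay close to DMSO in the fit with the set as a term. In that fit 1 of 76 members, RPL41, was called lower and 0 higher, where 11.9% of all tested genes were called lower and 8.65% higher. An unadjusted p under 0.05 was found in 3 members, again with no share over all genes beside it. The median was 0.02 over the members and 0.00 over all genes, with −0.02 within replicates 1 and 2 and 0.06 within replicates 3 and 4. RPL41 (ENSG00000229117, chr12:56116586-56117943, plus strand), the shortest protein of the ribosome, had 214, 199, 150.2 and 157 CPM with paclitaxel, against 228, 232, 177 and 169 CPM in DMSO. The paclitaxel and DMSO libraries did not overlap within a set, and the change was −0.17 ± 0.05 (adjusted p = 0.023). RPS28, near the exit of the mRNA from the ribosome, was the only other member without overlap in both sets (14.3% of all genes lay lower in this way); it had −0.16 ± 0.06 and missed the threshold (adjusted p = 0.073). The values furthest above 0 were those of RPS18 (0.18 ± 0.22) and RPL24 (0.13 ± 0.06, adjusted p = 0.113), neither of them called.

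The libraries of paclitaxel were not alike. The members' median relative to DMSO was 0.07, −0.12, 0.08 and 0.03 in replicates 1 to 4, so replicate 2 alone lay below 0. Without paclitaxel replicate 2 the count was 1 higher and 0 lower, without paclitaxel replicate 1 it was 2 lower, and without paclitaxel replicate 3, DMSO replicate 2 or DMSO replicate 3 it was 0. With the RNA concentration in place of the set 51 members were called higher and 0 lower, and in the authors' deposited log2 values, corrected for concentration, 43 higher and 0 lower. The members' median was then 0.27 and 0.24.

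Members of both subunits were lower with the combination as well, by a similar amount, in the fit with the set as a term. Of 76 members 24 were called lower and 0 higher than in DMSO, where 19.5% of all tested genes were called lower and 18.5% higher, so that the members' share of 31.6% lay nearer to the background than their share of 47.4% with afatinib. All 76 lay below 0, with a median of −0.13 (all genes 0.00), −0.14 within replicates 1 and 2 and −0.12 within replicates 3 and 4, but the median turned to 0.13 with the RNA concentration in place of the set and to 0.08 in the authors' deposited log2 values, which were corrected for concentration. In 36 members every combination library lay below every DMSO library in both sets, as for 19.7% of all genes. Library by library the members' median was −0.11, −0.16, −0.10 and −0.14.

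The 6 largest called falls with the combination were in RPL17, RPL41, RPS28, RPS14, RPLP0 and RPS21. RPL41 had 196, 182, 133 and 129 CPM with the combination, against 228, 232, 177 and 169 CPM in DMSO. Within each set both combination libraries were below both DMSO libraries, and RPL41 fell by 21.1% (−0.34 ± 0.05, adjusted p = 8.3e-06). RPS28 (ENSG00000233927, chr19:8321158-8323340, plus strand) had 389, 381, 223 and 239 CPM with the combination, against 464, 434, 292 and 295 CPM in DMSO (−0.28 ± 0.06, adjusted p = 9.2e-04). Its locus overlaps NDUFA7 and KANK3 on the other strand, whose reads cannot be told apart from its own if strand was not used. RPS14 had 399.8, 366, 255 and 240.3 CPM with the combination, against 434, 449.6, 309 and 297 CPM in DMSO (−0.25 ± 0.06, adjusted p = 0.0011). RPLP0 (ENSG00000089157, chr12:120196686-120201235, minus strand) had 1925, 1768, 1123 and 986 CPM with the combination, against 2123, 2118, 1379.6 and 1184 CPM in DMSO (−0.24 ± 0.07, adjusted p = 0.0048). In all 4 genes the combination libraries lay below the DMSO libraries of their set.

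RPL17 had 13.3, 13.3, 9.74 and 8.67 CPM with the combination, against 16.6, 17.7, 12.7 and 11.2 CPM in DMSO (−0.37 ± 0.07, adjusted p = 3.0e-04), the largest called fall of any member in this comparison. RPS21, a small protein of the 40S subunit, had 374, 392, 252 and 261 CPM, against 471, 408, 300.3 and 323 CPM in DMSO (−0.24 ± 0.07, adjusted p = 0.0088). RPS21 lost its call when a single library was left out (adjusted p up to 0.055), and RPL17 kept it (up to 0.0025). RPS6 (−0.14 ± 0.06, adjusted p = 0.052), RPL5 (−0.03 ± 0.06), RPL11 (−0.05 ± 0.06), RPLP1 (−0.10 ± 0.07), RPLP2 (−0.12 ± 0.06), RPS19 (−0.07 ± 0.06) and RPSA (−0.06 ± 0.06) were not called.

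Without combination replicate 2 the count was 13, as it was without DMSO replicate 1, and RPL17, RPL41, RPS28, RPS14, RPLP0, RPL32, RPL10, RPL35A and RPL29 (9 of 24) kept the call whichever library was left out. It was 0 without the set term, 10 with replicates 1 and 2 alone, 5 with replicates 3 and 4 alone, 11 with a correction for the table's gene length and 15 with one for transcript length. With the RNA concentration in place of the set 3 members were called higher and 2 lower.

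**Figure D4:**
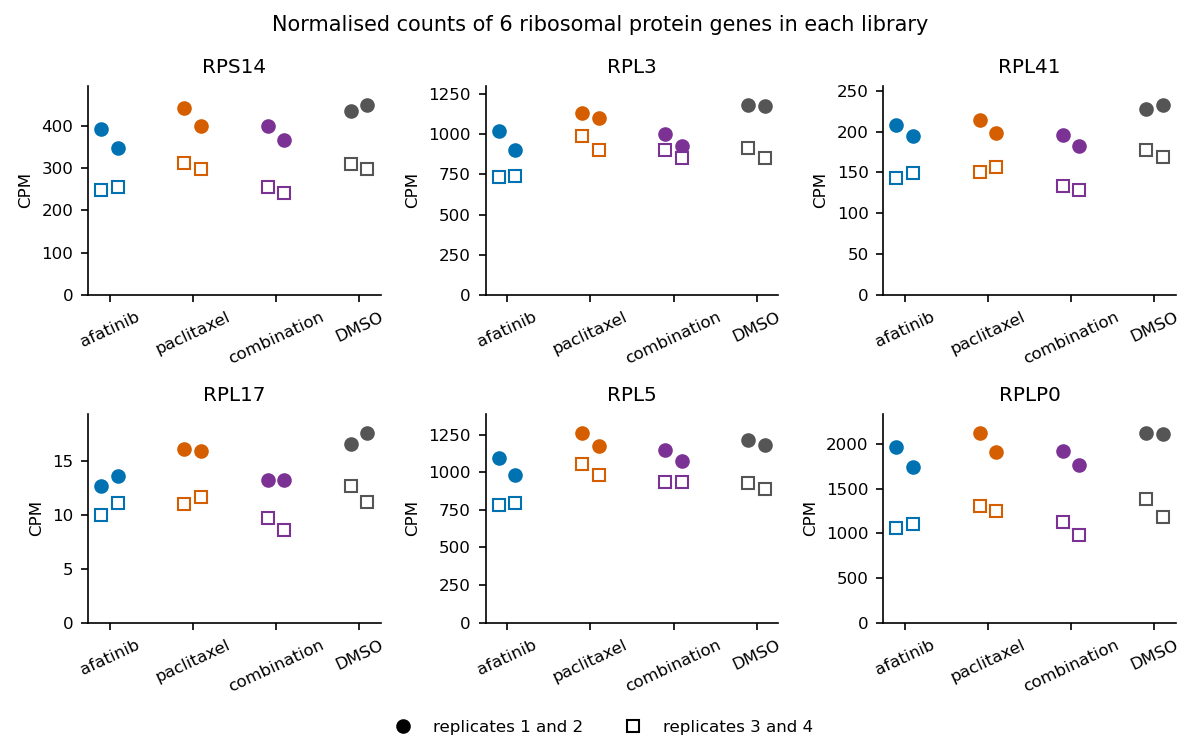
CPM of RPS14, RPL3, RPL41, RPL17, RPL5 and RPLP0 in each library, from 0, with groups from left to right afatinib, paclitaxel, combination and DMSO; filled circles are replicates 1 and 2 and open squares replicates 3 and 4. The distance between the sets exceeds that between the groups in most panels, and within each set RPS14 and RPL41 are lower with afatinib and the combination than in DMSO.

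Set against afatinib alone, the combination differed in 3 members, 1 higher and 2 lower, where 13.1% of all tested genes were called higher and 14.3% lower. The median over the members was 0.03. RPL5 (ENSG00000122406, chr1:92831983-92841924, plus strand) was higher: it had 1151, 1077, 935 and 938 CPM with the combination, against 1095, 984, 783 and 798 CPM with afatinib. The groups did not overlap in replicates 3 and 4 and did in replicates 1 and 2 (0.17 ± 0.06, adjusted p = 0.027). RPS28 was lower, with 389, 381, 223 and 239 CPM with the combination, against 441, 383, 273 and 295 CPM with afatinib (−0.20 ± 0.06, adjusted p = 0.022). RPS18 was called lower at −0.61 ± 0.22 (adjusted p = 0.044), with 0.641, 0.532, 1.36 and 1.58 CPM with the combination, against 1.20, 0.761, 2.07 and 2.18 CPM with afatinib, on its divided reads. Every one of the 3 lost its call when some library was left out. The count was 7 without afatinib replicate 1 (all higher) and 7 without combination replicate 2 (6 higher), 1 without afatinib replicate 3 or combination replicate 1, and 0 without afatinib replicate 4 or combination replicate 3.

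Set against paclitaxel alone, the combination was lower in 19 members and higher in 0, where 11.6% of all tested genes were called lower and 12.6% higher. The median was −0.13 over the members and −0.01 over all genes, with −0.11 within replicates 1 and 2 and −0.17 within replicates 3 and 4, and all 76 members lay below 0. The largest called falls were RPL17, RPS29 and RPL34. RPL17 had 13.3, 13.3, 9.74 and 8.67 CPM with the combination, against 16.1, 15.9, 11.0 and 11.7 CPM with paclitaxel (−0.29 ± 0.08, adjusted p = 0.0069). RPS29, a zinc-binding protein of the 40S subunit, had 195, 212, 138 and 135 CPM with the combination, against 266, 200.5, 179 and 160.3 CPM with paclitaxel (−0.25 ± 0.07, adjusted p = 0.014). RPL34 had 186, 177, 117 and 114 CPM with the combination, against 225, 186, 141 and 138 CPM with paclitaxel (−0.23 ± 0.06, adjusted p = 0.0066). In RPS29 and RPL34 the groups overlapped within replicates 1 and 2, where paclitaxel replicate 2 was the lower of its pair, and in RPL17 they did not overlap in either set. The count was 40 without paclitaxel replicate 2, 11 without paclitaxel replicate 4 or combination replicate 2, 9 without paclitaxel replicate 3 and 6 without paclitaxel replicate 1. RPL17, RPL34, RPS14, RPL24, RPS7 and RPL35A (6 of 19) kept the call whichever library was left out.

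The interaction, the combination's change minus both single-drug changes, called 0 of 76 members in edgeR, where 0.389% of all genes were called higher and 0.495% lower. DESeq2 also called 0 members. In edgeR 1 member had an unadjusted p under 0.05, with no share over all genes given here. The median was 0.02, with a median SE of 0.09. RPS14 had 0.04 ± 0.08, RPL41 0.04 ± 0.07, RPL3 0.12 ± 0.09 and RPL5 0.08 ± 0.08 on the log2 scale. Directly compared, afatinib was lower than paclitaxel in 48 members and higher in 0, where 17.1% of all genes were called lower and 18.9% higher, with a median of −0.18, −0.15 within replicates 1 and 2 and −0.21 within replicates 3 and 4. RPL5 had 1095, 984, 783 and 798 CPM with afatinib, against 1263, 1177, 1052 and 984 CPM with paclitaxel, without overlap within either set (−0.30 ± 0.06, adjusted p = 2.5e-04). Of the 48, 22 kept the call whichever library was left out. The count was 26 without afatinib replicate 2 or paclitaxel replicate 1 and 30 without afatinib replicate 3 or paclitaxel replicate 3.

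Sorted by place and role in the ribosome, the groups of members had medians close to that of the family. With afatinib 26 of 46 members of the 60S subunit and 10 of 30 of the 40S subunit were called lower (56.5% and 33.3%, against 10.1% of all genes), with medians of −0.17 and −0.15. With the combination 17 of 46 and 7 of 30 were lower (37.0% and 23.3%, against 19.5% of all genes), with medians of −0.13 and −0.14, so the share of the 40S members lay near that of all genes. Of the 8 proteins of the exit tunnel and its rim 3 fell with afatinib (RPL17, RPL4 and RPL23A) and 3 with the combination (RPL17, RPL26 and RPL23A), 37.5% in each, with medians of −0.16 and −0.10. Of the 8 proteins along the path of the mRNA and at the decoding site 1 fell with afatinib (RPS14; 12.5%, near the share over all genes) and 3 with the combination (RPS14, RPS28 and RPS2; 37.5%), with medians of −0.12 and −0.15. Among 13 tested genes of Diamond-Blackfan anaemia 6 fell with afatinib (RPS10, RPL35A, RPL5, RPS7, RPL15 and RPS24; 46.2%) and 4 with the combination (RPS28, RPL35A, RPL26 and RPS7; 30.8%), with medians of −0.17 and −0.14. With paclitaxel 0 of these 13 were called, with a median of 0.03.

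Related genes outside the family were read beside it, and beside the shares over all genes of 10.1% lower and 9.00% higher with afatinib, 11.9% and 8.65% with paclitaxel and 19.5% and 18.5% with the combination. Ribosome assembly factors, which process ribosomal RNA and join it with these proteins in the nucleolus, were lower with afatinib in 30 of 54 and higher in 0 (median −0.18), among them EBNA1BP2 (−0.49 ± 0.06), EIF6, which keeps the subunits apart (−0.41 ± 0.05), DKC1, the pseudouridine synthase of ribosomal RNA (−0.30 ± 0.05), and NOP58, a core protein of the particles that methylate it (−0.26 ± 0.05). With paclitaxel they went the other way, 19 higher and 1 lower (median 0.11), among them DDX10 (0.45 ± 0.06), PNO1 (0.35 ± 0.06), LYAR (0.33 ± 0.06) and WDR43 (0.29 ± 0.05). NOC4L was the one that fell (−0.24 ± 0.07). With the combination 4 were higher and 18 lower (median −0.07), and DDX10 was again the highest (0.62 ± 0.06). In the fit with the set the members and the assembly factors had like medians with afatinib. With paclitaxel 0 of 76 members and 19 of 54 factors were called higher in that fit. With the RNA concentration in place of the set 51 members were called higher with paclitaxel, and 43 in the authors' deposited log2 values. Values of the factors and of the lists below are given for the fit with the set only, so this difference was not tested in the others.

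Other mRNAs known to carry the TOP motif, mostly translation factors, were lower with afatinib in 12 of 18 and higher in 0 (median −0.22), among them EEF1D (−0.52 ± 0.09), NPM1, the nucleolar chaperone (−0.32 ± 0.06), BTF3 (−0.29 ± 0.05), and GNB2L1, also called RACK1, which sits on the 40S subunit (−0.28 ± 0.06). With paclitaxel 1 of 18 was lower, EIF4B (−0.15 ± 0.05), and with the combination 9 were lower and 0 higher (median −0.13). EEF1A1, the most abundant elongation factor, was not called in any of these (afatinib −0.11 ± 0.06). Paralogs and ubiquitin-like fusions of ribosomal proteins outside the symbol rule were lower with afatinib in 6 of 8 and higher in 1. RPL22L1 fell (−0.46 ± 0.09), as did RPL26L1 (−0.33 ± 0.06) and FAU, which encodes the 40S protein eS30 (−0.20 ± 0.06), whereas RPL39L rose with afatinib (0.24 ± 0.08) and with the combination (0.38 ± 0.08). The member RPL39, of which RPL39L is a near copy, had −0.13 ± 0.06 with afatinib and was not called.

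Mitochondrial ribosomal proteins, a separate family, were lower in 12 of 76 and higher in 0 with afatinib (median −0.08), lower in 3 and higher in 1 with paclitaxel (median −0.01), and lower in 17 and higher in 7 with the combination (median −0.04), with MRPL16 at −0.31 ± 0.06 in afatinib and MRPL17 at −0.30 ± 0.06 in paclitaxel and −0.47 ± 0.06 in the combination. The shares lower were 15.8% with afatinib, 3.95% with paclitaxel and 22.4% with the combination, the last near that of all genes. Subunits and factors of RNA polymerase I, which transcribes ribosomal RNA, were lower in 2 of 13 with afatinib (TAF1A −0.32 ± 0.06 and POLR1E −0.24 ± 0.06), higher in 2 with paclitaxel (TWISTNB 0.19 ± 0.06 and POLR1D 0.17 ± 0.06) and split 2 and 2 with the combination, each count being 15.4% of the list. Of 5 chaperones dedicated to single ribosomal proteins, GRWD1, the partner of RPL3, fell with afatinib (−0.17 ± 0.06), and HEATR3 and PDCD2L fell with the combination. Of 22 regulators of the synthesis of ribosomal proteins 4 were lower and 1 higher with afatinib (18.2% and 4.55%), 3 lower and 1 higher with paclitaxel (13.6% and 4.55%) and 6 lower and 4 higher with the combination (27.3% and 18.2%). The share lower with paclitaxel and the share higher with the combination lay near those of all genes. EIF4EBP2, which blocks the cap-binding factor EIF4E, had −0.33 ± 0.06 with afatinib, −0.36 ± 0.06 with paclitaxel and −0.71 ± 0.06 with the combination, all called. TSC1, an inhibitor of the mTOR pathway, had 0.27 ± 0.07, 0.23 ± 0.07 and 0.56 ± 0.07 in the same order, all called higher. MYC, an activator of ribosome production, had −0.80 ± 0.09 with the combination, which was called lower, and −0.20 ± 0.09 with afatinib and −0.14 ± 0.09 with paclitaxel, which were not. LARP1 was not called in any of the 3 (−0.08 ± 0.05 with afatinib).

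**Figure D5:**
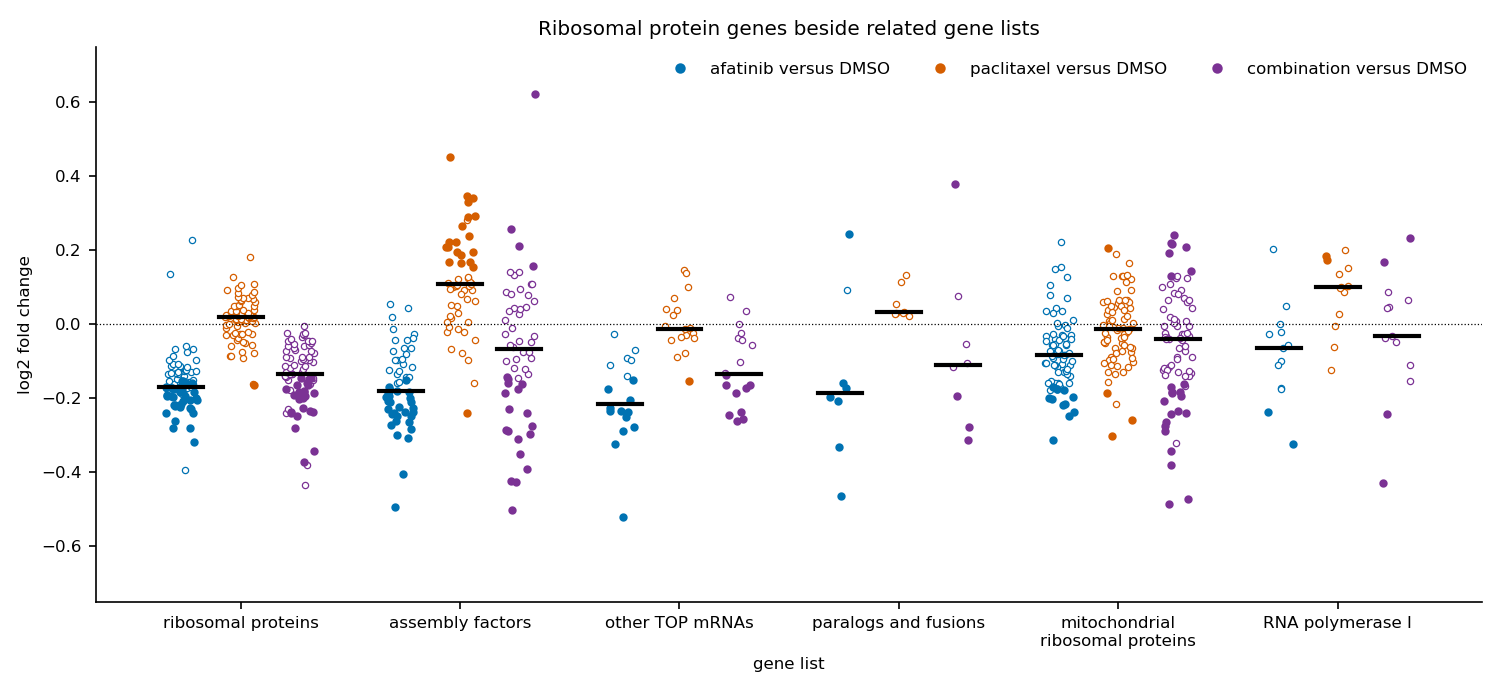
Log2 fold change against DMSO of every tested gene of 6 lists (ribosomal proteins, assembly factors, other TOP mRNAs, paralogs and fusions, mitochondrial ribosomal proteins, RNA polymerase I), with afatinib, paclitaxel and combination from left to right in each list; filled points were called and black bars are medians. In the fit with the set as a term, the assembly factors lie below 0 with afatinib (median −0.18) and above it with paclitaxel (0.11). The ribosomal proteins lie below 0 with afatinib (−0.17) and around it with paclitaxel (0.02). With the RNA concentration in place of the set their median with paclitaxel was 0.27.

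Members with and without the motif at their annotated start had like medians. With afatinib 19 of 46 members with the motif were lower (41.3%, median −0.16) and 10 of 16 matched members without it (62.5%, median −0.17), RPL3 being among the second. With the combination 15 of 46 with the motif (32.6%, median −0.13) and 5 of 16 without it (31.3%, median −0.13) were lower. RPS28, the member with the third largest called fall, has no run at its annotated start, and RPS14 has a run of 10. Outside the family the motif was borne by 712 tested genes, of which 14.2% were lower and 9.97% higher with afatinib (median −0.03), against 12.0% and 9.99% of 9832 genes with an entry and no motif (median −0.01). With paclitaxel 15.7% of the 712 were lower and 7.44% higher, against 14.8% and 9.43%. These are counts over annotated starts, with no test of the difference. They do not separate mRNAs with and without the motif where the start used lies beside the annotated one, as could hold for RPS28.

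Length of transcript was set beside the drug changes too. With afatinib the median of other protein-coding genes was 0.02 for transcripts under 500 bases and −0.03 from 500 to 1000 bases, against −0.16 and −0.17 for members of the same lengths. With the combination it was −0.01 and −0.05, against −0.18 and −0.13 for members. After a correction for transcript length the members' median was −0.15 with afatinib, 0.03 with paclitaxel and −0.08 with the combination, and −0.26 between the sets. Mitochondrially encoded genes took 2.76%, 2.87%, 7.23% and 7.05% of counts with afatinib, 3.22%, 3.43%, 5.03% and 8.09% with paclitaxel, 3.48%, 2.94%, 7.78% and 9.71% with the combination and 2.38%, 2.26%, 4.09% and 4.72% in DMSO, higher in each treated library than in every DMSO library of its set. Leaving the members and these genes out of the scaling gave medians of −0.17, 0.02 and −0.13, and the part of the mitochondrial counts in the result was not tested further.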

How the data were processed

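RNA-seq libraries of MDA-MB-231 cells were compared, 4 each from afatinib, paclitaxel, combination and DMSO. The authors deposited a table of read counts per gene for 37864 genes; the submitters' processing notes name STAR 2.7.5b, featureCounts, Subread 2.0.1 and hg38, with no settings. They also deposited log2 values, which the name of the table says were corrected for RNA concentration. The deposited table's 2 further numeric columns were not used as samples, and 171 genes without a symbol held 0.036 to 0.0462% of a library's counts.

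Genes were tested on the counts with edgeR 4.0.16 (R 4.3.3): quasi-likelihood with robust dispersion, TMM scaling, a minimum count of 10 and minimum total of 15, a term for the group and one for the concentration set, and all 16 libraries in 1 fit. Of the genes, 17991 were tested and p-values were adjusted by Benjamini-Hochberg over all of them; under 0.05 was called. Fold changes are given as log2 ± SE. Totals were 28366004 to 48108577 counts (median 42725829), and the biological coefficient of variation was 7.41%. All 24 pairs of libraries within a group differed beyond sampling noise (chi-square per gene 7.41 to 388), so each was counted as 1 sample. CPM are counts per 1000000 of the scaled library size, and levels between genes are CPM per kilobase of the GENCODE v29 principal transcript. The method was tested on simulated counts.

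The ribosomal protein genes and all gene lists were chosen with earlier results of these data known. Named by rule were the 6 largest called falls with afatinib and the combination and the 3 with the combination against paclitaxel. All called members were named with paclitaxel against DMSO and with the combination against afatinib. No member was named for its call in afatinib against paclitaxel. The rule also took the 8 highest and 6 lowest levels, members on several identifiers and 8 members with special roles. Of each other list it took up to 4 genes by the smallest p in a comparison. RPL24, RPL39, uncalled members furthest from 0, EEF1A1 and LARP1 were chosen after their values were seen. Alternatives were other scalings, no filter, no set term, RNA concentration as covariate, the block, each set alone, length corrections, DESeq2 1.42.0, limma 3.58.1 on the deposited log2 values and leaving out each library. The correction for transcript length and the sums over identifiers were added after seeing the data. A few ribosomal protein genes enter the counts and medians but are not reported here singly.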

Additional observations from a re-analysis of the deposited data

How the results depend on the processing

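Counts of members called depended on how the concentration sets were handled, and in some comparisons on the scaling or the tool as well. Shares over all genes are given for the fit with the set only, so whether other genes moved alike is not shown. Without the set term 0 members were called with afatinib, paclitaxel or the combination against DMSO, or in the combination against either drug or afatinib against paclitaxel. With log2 RNA concentration as covariate the counts were 0 with afatinib, 51 with paclitaxel (all higher), 5 with the combination (3 higher, 2 lower), 10 in the combination against afatinib (9 higher, 1 lower) and 1 against paclitaxel. With limma on the authors' deposited log2 values they were 1, 43 (all higher), 2, 11 (10 higher, 1 lower) and 2 in the same order. In replicates 1 and 2 alone they were 3, 0, 10, 0 and 2, and in replicates 3 and 4 alone 0, 0, 5, 1 and 2; afatinib against paclitaxel gave 9 and 14. Library totals without a TMM factor gave 3 with afatinib, 0 with paclitaxel and 20 in afatinib against paclitaxel. Without the filter paclitaxel gave 2. DESeq2 gave 8 in the combination against afatinib (6 higher, 2 lower) and 30 against paclitaxel. The table's gene length as offset gave 2 with paclitaxel (1 higher, 1 lower), 11 with the combination and 8 in the combination against afatinib (all higher); transcript length gave 2 (1 higher, 1 lower), 15 and 14 (13 higher, 1 lower). With pseudogenes added the combination against afatinib gave 3 (2 higher, 1 lower). The interaction stayed at 0 in every alternative run. The members' median against DMSO was −0.05 with afatinib, 0.27 with paclitaxel and 0.13 with the combination with concentration as covariate, and −0.09, 0.24 and 0.08 in the authors' deposited log2 values, so the combination's direction turned in both. The cause of these shifts was not tested.

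Deviations from the group means correlated at 0.37 to 0.70 between same-numbered libraries (24 pairs, median 0.59). Between libraries of the same set with different numbers they correlated at 0.38 to 0.67 (24 pairs, median 0.50). With the set means removed, same-numbered libraries correlated at −0.12 to 0.13 (median 0.00). Libraries of the same set with different numbers then correlated at −0.30 to −0.04 (median −0.18). Taking out the set means itself pushes correlations within a set below 0, so the median of 0.00 does not show an absence of pairing. Whether libraries of the same number were handled together was not tested. With replicate number as a block, 2 members were called with paclitaxel, 9 in the combination against afatinib (5 higher, 4 lower) and 33 against paclitaxel; with the block and the length offset together these were 5 (4 higher, 1 lower), 17 (14 higher, 3 lower) and 32. The block moved the other counts by 1.5 times or less, to 49 with afatinib, 36 with the combination and 58 in afatinib against paclitaxel.

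Leaving out 1 library gave 10 to 43 with afatinib, 0 to 2 with paclitaxel, 13 to 29 with the combination, 0 to 7 in the combination against afatinib, 6 to 40 against paclitaxel, 26 to 59 in afatinib against paclitaxel, and 75 to 76 between the sets. The members' share of counts was then 3.78 to 4.50% with afatinib, 4.11 to 4.82% with paclitaxel, 3.77 to 4.53% with the combination and 4.09 to 4.81% in DMSO.

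For single members, the paclitaxel values that changed sign included those of RPL41 (0.056 with concentration as covariate, 0.072 in the authors' deposited log2 values) and RPLP0 (0.33 and 0.31). The combination values that changed sign included those of RPLP0 (0.13 and 0.063), and with concentration as covariate RPS14 (0.029), RPS28 (0.016) and RPSA (0.27). The list is not complete. With the combination all 76 members lay below 0 in the fit with the set, but their median was 0.13 with concentration as covariate. Depth limits RPS18, RPS9, RPS10, RPL36A and RPL17, whose counts also share reads with copies or readthrough genes.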
